A study of Mus musculus with 15 samples.

Results

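Tumour nests of mouse basal cell carcinoma that scored Ki67-negative were compared with nests that scored Ki67-positive, both from untreated animals. The libraries were chosen by their labels alone: 5 carried the label ki67- and 5 the label ki67+, which is 10 of the 15 libraries in the series. Of 36528 gene identifiers listed, 17282 had enough counts to be tested.

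All 15 libraries came from nests cut by laser capture microdissection from frozen skin, and polyadenylated RNA was sequenced. The mice carried K14Cre-ER, an inducible Cre recombinase under the keratin 14 promoter, which is active in basal keratinocytes. With it they carried floxed alleles of the Hedgehog receptor Ptch1 (Ptch1fl/fl) and of the tumour suppressor p53 (p53fl/fl), and the reporter Lgr5GFP. Both untreated groups share these alleles, so the level of Ptch1 or Trp53 checks no label. The remaining 5 libraries came from nests left after 28 days of vismodegib, an inhibitor of the Hedgehog transducer Smo; they entered the fit only to share its estimate of the spread. How a nest was scored for Ki67, the age of the animals and which libraries share an animal are not stated in the labels. The p-values therefore measure the spread between libraries, which may be technical, and are too small if nests of 1 animal were counted as separate libraries.

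Ki67 is a chromatin protein, encoded by Mki67, that is present through the active cell cycle and lost in resting cells, and pathologists use it to tell cycling from resting tumour cells. A dividing cell first switches on genes for copying DNA, which respond to E2F transcription factors, and later the genes for building a spindle, attaching chromosomes and splitting the cell. The later group is kept off in resting cells by the DREAM complex, which binds a short promoter element called the CHR, and is switched on through the same element by complexes that hold B-Myb and FoxM1. In basal cell carcinoma the loss of Ptch1 frees Smo and keeps the Gli transcription factors active.

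The libraries held 4887381 to 7158143 counts in the Ki67-negative group and 4929869 to 8359195 in the Ki67-positive group (exact permutation test, two-sided, p = 0.579; the smallest p that 5 against 5 allows is 0.00794). Between 19669 and 22325 genes had a count in Ki67-negative libraries and between 21653 and 23108 in Ki67-positive libraries (exact p = 0.286). Ki67-negative replicate 5 had the fewest genes, and it alone set the first principal component of the untreated libraries. Xist exceeded Ddx3y in 1 library of each untreated group (replicate 5 in both), so those 2 came from female and the other 8 from male tissue by this measure. The 10 markers of tumour nests were Krt5, Krt14, Krt17, Trp63, Epcam, Cdh3, Sox9, Lgr5, Gli1 and Ptch1. Their summed levels were 10171 to 11722 CPM (counts per 1000000 of the library) in the Ki67-negative group, beside 11143 to 12381 CPM in the Ki67-positive group, with overlap. Ptch1 was a large part of the sum. Ki67-negative replicate 3 had 3643 CPM of Ptch1, and the lowest Krt5, Krt14 and Krt17 of the untreated libraries (1786, 573 and 787 CPM). The Ki67-negative libraries entered the repository as a later block of records; whether they were sequenced apart is not given, and such a batch and the group cannot be told apart.

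Mki67 checks the label. Its level was 772, 587, 591, 782 and 1147 CPM in the 5 Ki67-positive libraries and 408, 407, 234, 353 and 402 CPM in the 5 Ki67-negative libraries. Every Ki67-negative library lay below every Ki67-positive one, but the transcript was present in all of them. The means were 361 ± 74.5 CPM (SD, n = 5) and 776 ± 228 CPM (SD, n = 5), a fold change of -1.10 on the log2 scale (SE 0.20; edgeR quasi-likelihood test, Benjamini-Hochberg adjusted p = 0.0291). Because the groups are named for this gene, its difference is tied to the label and is no separate result. In bulk nests, fewer cells with a transcript and less transcript in each cell cannot be told apart.

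Across all genes, 30 fell in Ki67-negative nests and 0 rose (edgeR quasi-likelihood test, adjusted p under 0.05), which is 0.174% and 0% of the genes tested. At an unadjusted p under 0.05 there were 572 lower and 582 higher genes (3.31% and 3.37%), and the median log2 fold change of all genes was 0.01. DESeq2 called 83 lower and 5 higher genes, among them all of the 30, and limma with voom called 15 lower and 0 higher. The 30 genes fell by 0.99 to 1.87 on the log2 scale, with a median of -1.39, and their adjusted p-values ran from 0.0211 to 0.0458. In all 30, the 5 Ki67-negative libraries lay below the 5 Ki67-positive ones, an order that 0.845% of all genes tested showed in this direction and 0.33% in the other.

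The number of calls rested on the design. With the 10 untreated libraries alone 0 genes passed, and 0 passed when Ki67-positive replicate 4 or Ki67-negative replicate 3, 4 or 5 was left out; without Ki67-positive replicate 5, 2 passed, and without Ki67-negative replicate 2, 12. The log2 fold change of each of the 30 genes stayed below 0 in all 20 alternatives, with an unadjusted p of at most 0.001. Ki67-positive replicate 5 held the highest level of its group in 27 of the 30 genes, and Ki67-negative replicate 3 the lowest of its group in 20.

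**Figure D1:**
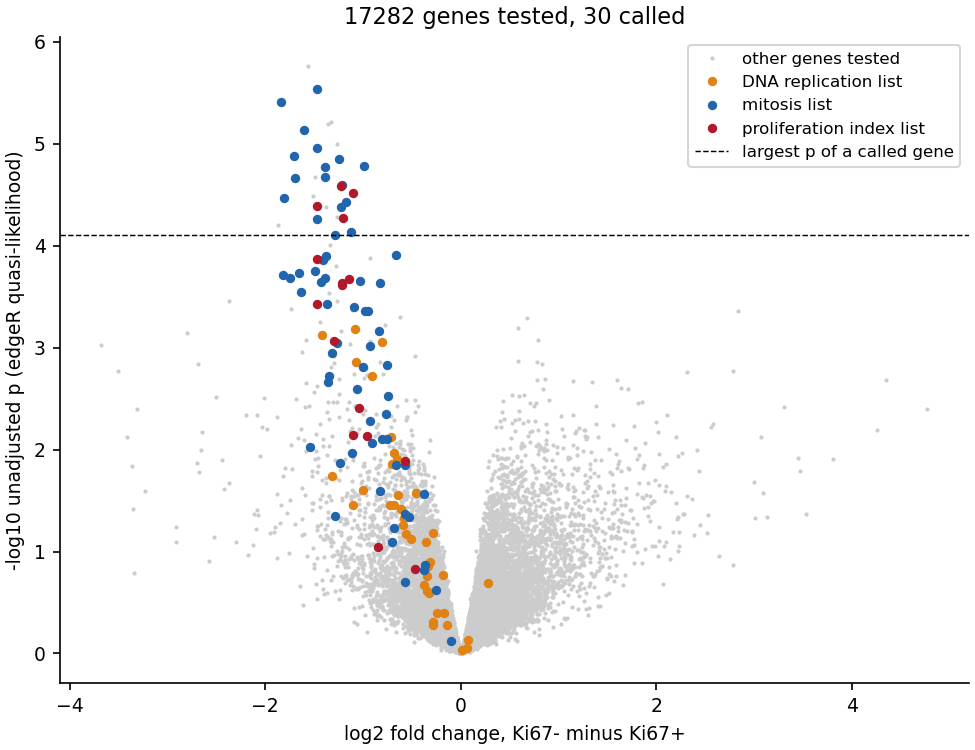
Log2 fold change (Ki67-negative minus Ki67-positive, x axis) against -log10 of the unadjusted p (y axis) for the 17282 genes tested, with the members of 3 cell cycle lists in colour. The 30 genes on or above the dashed line all lie left of 0. Genes of the replication list (orange) stay below the line.

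What the 30 genes are was read against gene lists. Of the 30, 21 belonged to a cell cycle list: 17 to the list of mitosis, spindle, kinetochore and cytokinesis genes, 4 to a list of proliferation index genes (Mki67, Top2a, Cenpf and Tpx2) and 0 to the list of DNA replication genes. The other 9 were in no list, among them Gas2l3, Knstrn, Ticrr, Arhgap11a, Esco2, Kif14, Ska3 and Neil3. Of the 65 mitosis genes measured (67 in the list), 17 fell and 0 rose, 65 had a log2 fold change below 0 against 48.9% of all genes, and 58 had an unadjusted p under 0.05 against 3.31% of all genes. The median of the list was -1.12. Of the 16 proliferation index genes, 4 fell and 0 rose, all 16 were below 0, and the median was -1.18. Ki67 is itself a proliferation mark, so the direction of these lists is not independent of the label. The lists were also chosen with earlier results of these data known, so their shares beside all genes are descriptive only.

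**Figure D2:**
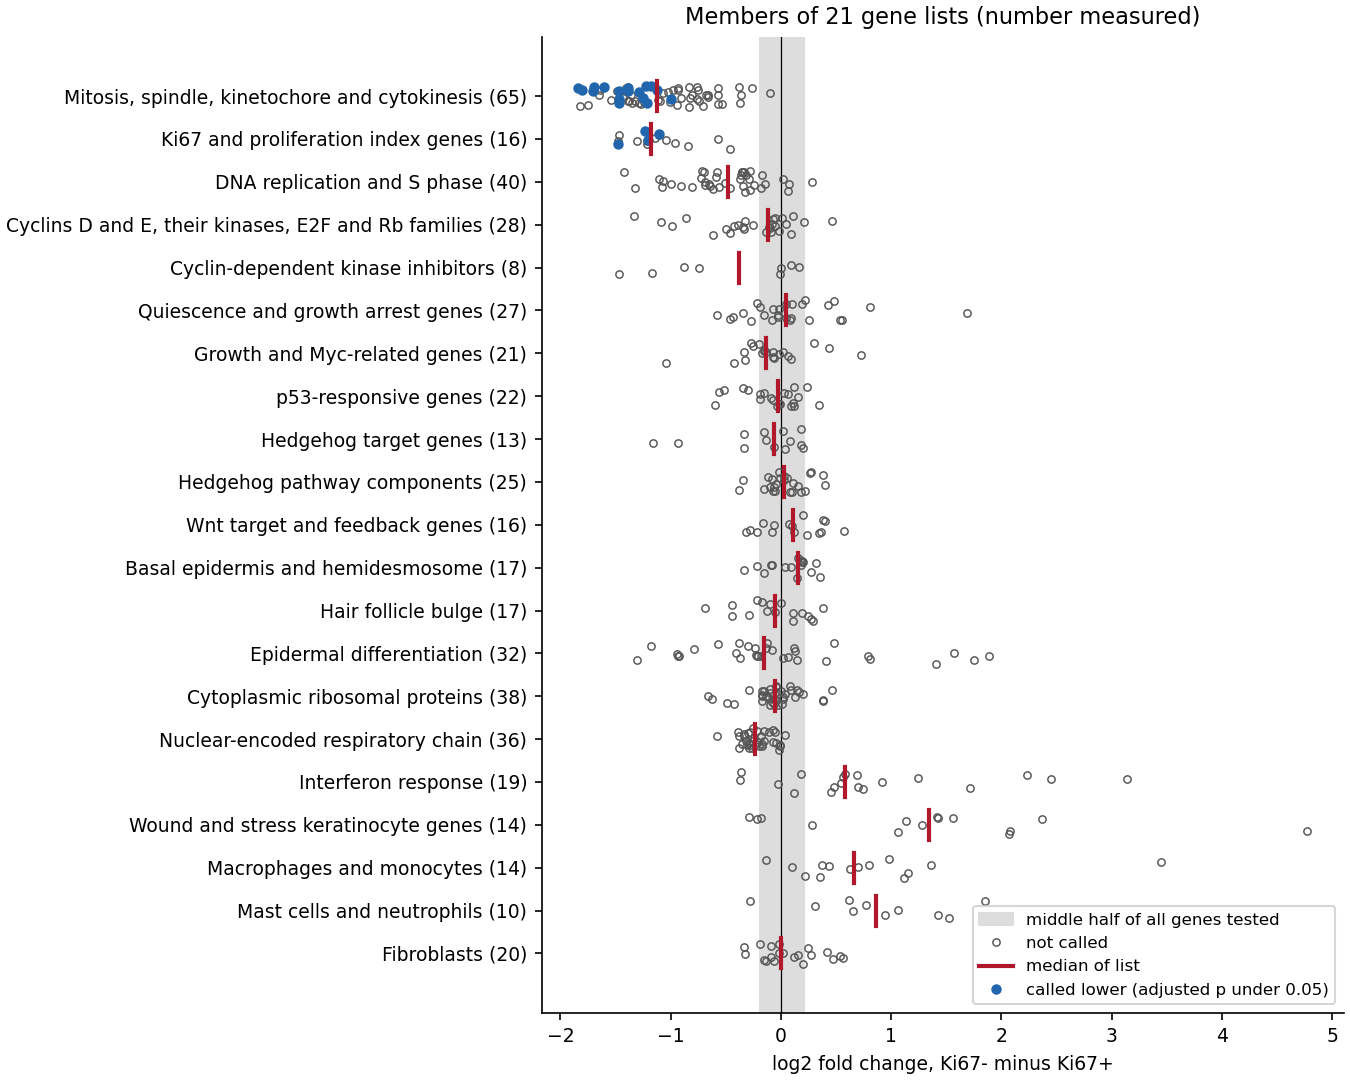
Log2 fold change (Ki67-negative minus Ki67-positive, x axis) of each measured member of 21 gene lists, with the number measured in brackets; filled points passed the test, the red bar is the list median, and the grey band is the interquartile range of all genes tested (-0.19 to 0.21). Called genes appear in the first 2 lists only, whose medians are -1.12 and -1.18.

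The roles of mitotic genes were read over the mitosis and proliferation index lists together, and the kinetochore genes gave the lowest median. The kinetochore is the protein plate that ties each chromosome to spindle fibres. Of 11 measured kinetochore and centromere genes, 5 fell (Knl1, Nuf2, Ndc80, Cenpe and Cenpf), and the median log2 fold change was -1.47. All 11 were lower at an unadjusted p under 0.05, beside 3.31% of all genes tested. Knl1, the scaffold that carries checkpoint proteins, stood at 106, 126, 93.1, 137 and 220 CPM in Ki67-positive and at 72.8, 49, 38.6, 41.5 and 44 CPM in Ki67-negative libraries. The groups did not overlap, and the highest Ki67-negative library, replicate 1, lay below the lowest Ki67-positive one, replicate 3. The fold change was -1.47 (SE 0.22, adjusted p = 0.0211 by edgeR). Nuf2 and Ndc80 are partners in the complex that grips microtubules. Nuf2 had 16.6, 12.9, 10.5, 18.1 and 29.5 CPM in Ki67-positive and 6.61, 4.25, 3.63, 5.13 and 4.64 CPM in Ki67-negative libraries, a fall of 1.84 on the log2 scale (SE 0.28, edgeR adjusted p = 0.0211). Ndc80 fell by 1.70 (SE 0.30, edgeR adjusted p = 0.0252), from 21.7 ± 8.1 to 6.63 ± 2.37 CPM (SD, n = 5 each). The kinesin Cenpe, which moves chromosomes to the spindle middle, averaged 137 ± 45.9 CPM in Ki67-positive and 49.4 ± 12.3 CPM in Ki67-negative nests.

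**Figure D3:**
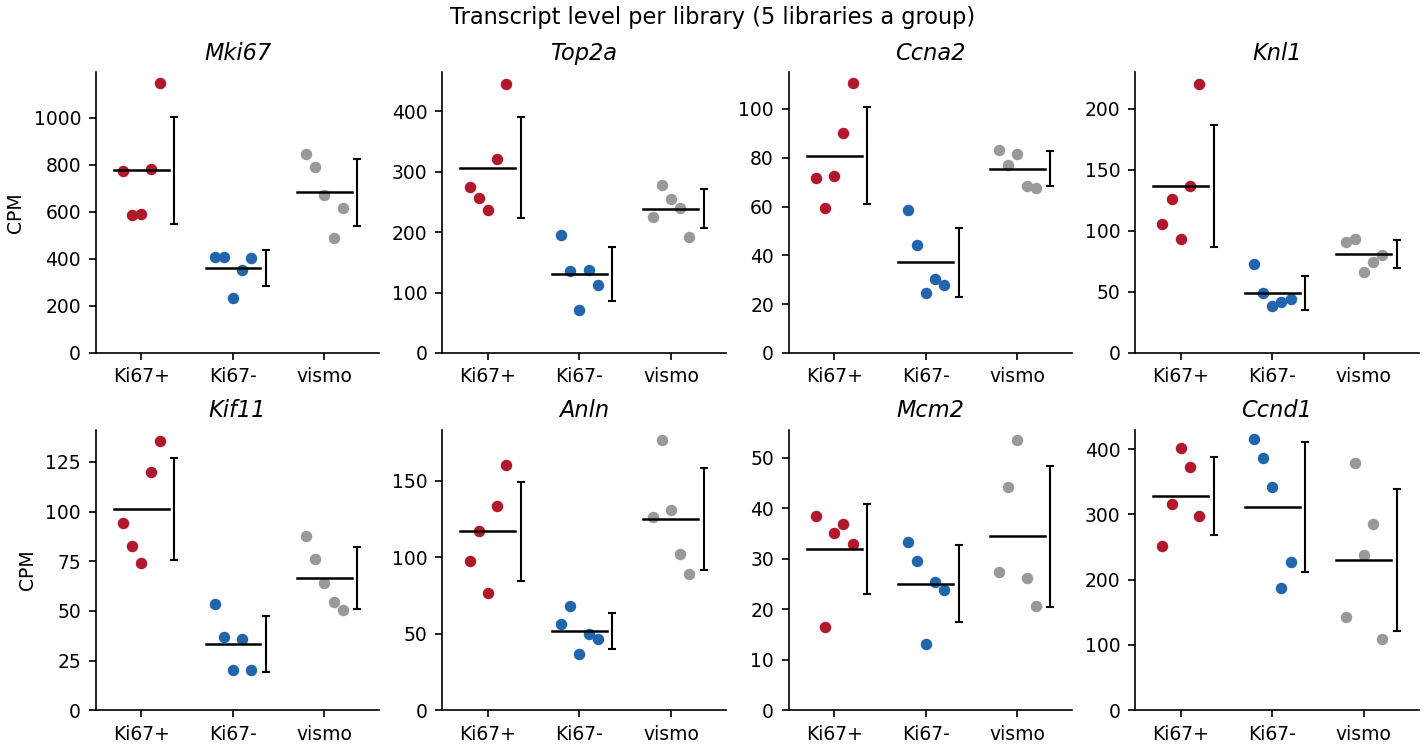
CPM per library (y axis, from 0) of 8 genes in Ki67-positive (red), Ki67-negative (blue) and vismodegib (grey, "vismo") nests, 5 libraries each, with the mean (line) and SD (bar). For Mki67, Top2a, Ccna2, Knl1, Kif11 and Anln the blue points all lie below the red ones; for Mcm2 and Ccnd1 they overlap.

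The spindle checkpoint, which delays chromosome separation until all kinetochores are attached, had 1 called gene of 5. This was Bub1b, at 42.8, 50, 27, 44.2 and 78.1 CPM in Ki67-positive and 25.2, 16.7, 12.5, 20.1 and 17.5 CPM in Ki67-negative libraries. It fell by 1.39 on the log2 scale (SE 0.24, edgeR adjusted p = 0.0252). The checkpoint kinase Bub1 had a log2 fold change of -1.47 and did not pass (edgeR adjusted p = 0.067), although its groups did not overlap. Of the mitotic kinases and chromosomal passenger genes 0 of 12 passed, and the median was -1.29. An unadjusted p under 0.05 was seen in 12 of 12, all lower, beside 3.31% of all genes tested. In 6 the groups did not overlap, beside 0.845% of all genes tested. Aurkb, the kinase that corrects faulty attachments, ranged from 18.7 to 38.8 CPM in the Ki67-positive group and from 3.44 to 15.2 CPM in the Ki67-negative group (log2 fold change -1.65, edgeR adjusted p = 0.0828). Cdk1, the kinase that drives entry into mitosis, ranged from 12.7 to 23.5 CPM and from 5.25 to 9.96 CPM (log2 fold change -1.22, edgeR adjusted p = 0.0882).

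Kinesin motors slide and sort spindle fibres. Of 8 measured in the list, 4 fell (Kif11, Kif23, Kif15 and Kif20b) and the median log2 fold change was -1.22; Kif14, a motor of cytokinesis outside the lists, also passed. Kif11, which pushes the spindle poles apart, had 94.1, 82.6, 74.3, 120 and 136 CPM in Ki67-positive and 53.4, 36.7, 20, 36.1 and 20.2 CPM in Ki67-negative libraries. The lowest Ki67-positive library was above the highest Ki67-negative one, and the fold change was -1.60 (SE 0.26, edgeR adjusted p = 0.0211). Kif23 forms the central spindle with Racgap1, and both fell. Kif23 had 23.2, 56.3, 33.1, 51.5 and 67.6 CPM against 17.7, 14.7, 13.3, 17.8 and 7.18 CPM, and its lowest Ki67-positive library, replicate 1, lay close above the Ki67-negative range. Racgap1 averaged 31.3 ± 10.2 CPM and 12.8 ± 4.06 CPM (SD, n = 5 each) and had the highest adjusted p of the 30 genes, 0.0458 by edgeR.

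Among spindle assembly proteins 3 of 8 fell, with a median of -1.23: Hmmr and Aspm, which focus and orient spindle poles, and Tpx2, which activates the kinase Aurora A on the spindle. Aspm stood at 92.3, 144, 104, 148 and 193 CPM in Ki67-positive and at 55.5, 54, 33.5, 60.5 and 56.1 CPM in Ki67-negative libraries. Replicate 3 lay apart below the other 4 Ki67-negative libraries. Ckap2 had a log2 fold change of -1.82, among the lowest of the list, with an edgeR adjusted p of 0.0836. Knstrn and Ska3, which stabilise the attachment of kinetochores to microtubules, were outside the lists and fell by 1.36 and 1.27 on the log2 scale.

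Cytokinesis, the splitting of the cell body, had 4 called genes of 6 (Anln, Cep55, Racgap1 and Cit) and a median of -1.38. Anln, a scaffold of the contractile ring, had 97.2, 117, 76.5, 133 and 160 CPM in Ki67-positive and 56.5, 68.4, 36.8, 49.5 and 46.5 CPM in Ki67-negative libraries (log2 fold change -1.18, SE 0.22, edgeR adjusted p = 0.03). Cep55 recruits the machinery that cuts the last bridge between daughter cells. Its levels were 18.3, 12.5, 8.08, 15 and 17.4 CPM against 2.58, 6.09, 4.64, 5.28 and 1.65 CPM, a fall of 1.81 on the log2 scale (SE 0.33, edgeR adjusted p = 0.0292). The groups did not overlap in either gene. Gas2l3, which links actin and microtubules at the midbody, fell from 31.4 ± 7.98 to 12.5 ± 2.88 CPM (SD, n = 5 each).

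Of 10 condensation and cohesion genes, 2 fell, Smc2 and the topoisomerase Top2a, and the median was -0.94. Top2a untangles DNA before chromosomes part; it had 275, 256, 236, 322 and 446 CPM in Ki67-positive and 196, 136, 71.1, 138 and 113 CPM in Ki67-negative libraries (log2 fold change -1.23, SE 0.22, edgeR adjusted p = 0.0263). Smc2, the core of condensin, had the smallest fold change of the 30 genes, -0.99, with means of 113 ± 24.8 and 56.9 ± 12.6 CPM (SD, n = 5 each). The role was not uniform. Pttg1, the securin that guards cohesion, had a log2 fold change of -0.10 and overlapping groups, from 17.2 to 27.2 CPM in the Ki67-positive group and from 6.28 to 34.3 CPM in the Ki67-negative group. Esco2, which locks cohesin onto freshly copied DNA, was outside the lists and fell by 1.52.

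Mitotic cyclins, Cdc25 phosphatases and Cks proteins had 1 called gene of 7 and a median of -1.04. This was Ccna2, the cyclin of S phase and early mitosis, at 71.6, 59.5, 72.6, 90.2 and 111 CPM in Ki67-positive and 58.6, 44.3, 24.4, 30.3 and 27.7 CPM in Ki67-negative libraries. The groups touched closely, with 59.5 CPM as the lowest Ki67-positive and 58.6 CPM as the highest Ki67-negative value (log2 fold change -1.12, SE 0.22, edgeR adjusted p = 0.0434). Ccnb1, the cyclin of mitotic entry, averaged 9.1 CPM in Ki67-positive and 4.38 CPM in Ki67-negative nests without overlap, and did not pass (edgeR adjusted p = 0.445).

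Other called genes act on DNA. Neil3, a DNA glycosylase, had the largest fall, 1.87 on the log2 scale (SE 0.36, edgeR adjusted p = 0.0384), from 23.4 ± 12.1 to 6.38 ± 2.83 CPM (SD, n = 5 each). Ticrr, which helps fire replication origins, fell by 1.26 and is the called gene whose product acts at the start of DNA copying; it was not in the replication list. Per transcript length, as deposited RPKM, Mki67 had the highest level of the 30 genes in Ki67-positive nests, 21.2 ± 6.36 RPKM (SD, n = 5), followed by Top2a with 16.2 ± 4.54 RPKM, and the cytokinesis kinase Cit had the lowest, 0.964 ± 0.343 RPKM.

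No gene of the DNA replication list passed the test, while Ticrr, which lies outside that list, did. Of 40 measured, 0 fell or rose by edgeR, and DESeq2 called 4 lower and 0 higher. At an unadjusted p under 0.05, 18 of the 40 were lower and 0 higher, beside 3.31% and 3.37% of all genes tested. Of the 40, 36 were below 0, beside 48.9% of all genes. The groups did not overlap in 4, all lower, beside 0.845% of all genes. The list thus lay below all genes although no member passed. The median log2 fold change was -0.48, beside -1.12 for the mitosis list; the difference between the lists was not tested. Over the alternatives the replication median lay between -0.57 and -0.40 and the mitosis median between -1.24 and -0.90. The summed level of the mitosis list was 2660, 2945, 2619, 3525 and 4329 CPM in Ki67-positive and 2044, 1832, 1279, 1734 and 1471 CPM in Ki67-negative libraries, without overlap. For the replication list it was 1168, 992, 1126, 1427 and 1310 CPM against 1116, 940, 766, 831 and 813 CPM. The replication sums overlapped through Ki67-negative replicate 1, whose mitosis sum was also the highest of its group.

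**Figure D4:**
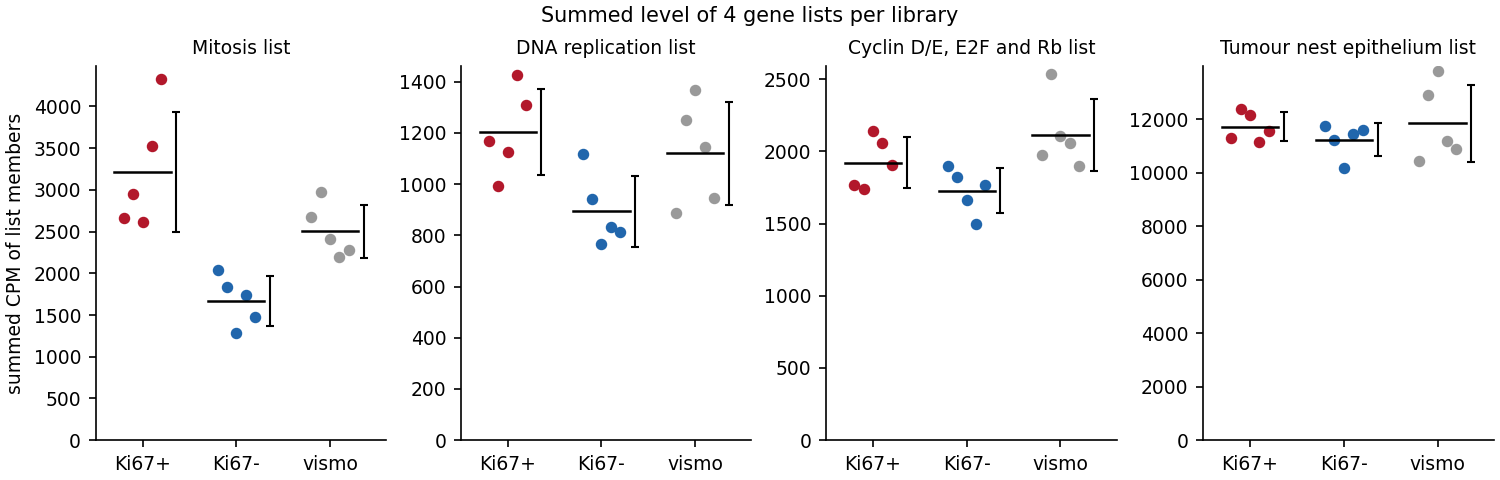
Summed CPM of the members of 4 gene lists (y axis, from 0) in each library of Ki67-positive (red), Ki67-negative (blue) and vismodegib (grey, "vismo") nests, with the mean (line) and SD (bar), 5 libraries a group. The mitosis sums of the 2 untreated groups do not overlap (1279 to 2044 against 2619 to 4329 CPM); the other 3 lists overlap.

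The roles within replication also take in Pcna, Rrm2 and Tyms from the proliferation index list. The 17 genes that load and fire the helicase had a median of -0.37, the 14 polymerase, clamp and fork genes -0.46, the 6 genes of nucleotide supply -0.65 and the 6 of chromatin assembly and maintenance -0.45. Mcm2, a subunit of the helicase and itself a common marker of cells licensed to divide, stood at 38.4, 16.4, 35, 36.9 and 33 CPM in Ki67-positive and at 33.2, 29.6, 13.1, 25.4 and 23.8 CPM in Ki67-negative libraries. The groups overlapped, with the lowest Ki67-positive value, in replicate 2, below 4 of the Ki67-negative ones (log2 fold change -0.35, SE 0.29, edgeR adjusted p = 0.866). Mcm10, which joins the helicase when origins fire, had 10.6, 16.4, 8.55, 15.2 and 16.6 CPM against 6.61, 7.51, 3.63, 5.13 and 2.09 CPM, without overlap, and a log2 fold change of -1.42 that did not pass (SE 0.35, edgeR adjusted p = 0.184). Pole, the catalytic subunit of a replicative polymerase, had -1.08 (edgeR adjusted p = 0.174), and Gins4, another helicase partner, 0.28. Pcna, the sliding clamp, averaged 9.47 ± 3.07 CPM in Ki67-positive and 6.86 ± 1.23 CPM in Ki67-negative nests (SD, n = 5 each), with overlapping groups.

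The switches upstream of replication were also below the threshold. Of 28 cyclin D and E, kinase, E2F and Rb family genes, 0 passed by edgeR and 2 were called lower by DESeq2. At an unadjusted p under 0.05, 8 were lower, beside 3.31% of all genes tested, and 0 were higher. The median was -0.12. E2f3, an activating E2F, had 47.9, 38.4, 48.9, 43 and 37 CPM in Ki67-positive and 32.8, 22.5, 29.5, 30.2 and 25.3 CPM in Ki67-negative libraries, without overlap, and its log2 fold change of -0.62 did not pass (edgeR adjusted p = 0.141). Ccnd1, the cyclin D that answers growth signals, had 251, 315, 402, 373 and 298 CPM against 415, 386, 342, 187 and 227 CPM. Its groups overlapped fully, and the log2 fold change was -0.07 (SE 0.29, edgeR adjusted p = 0.979). Ccnd2 averaged 125 ± 45.6 and 98.6 ± 37.3 CPM (SD, n = 5 each) and overlapped as well.

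Inhibitors of the cell cycle were not higher by the test. Of 8 cyclin-dependent kinase inhibitor genes 0 passed. At an unadjusted p under 0.05, 3 were lower (Cdkn2c, Cdkn3 and Cdkn2d), beside 3.31% of all genes tested, and 0 were higher. Cdkn1b, the p27 protein's gene and a common mark of resting cells, had 134, 161, 174, 131 and 174 CPM in Ki67-positive and 176, 133, 180, 124 and 155 CPM in Ki67-negative libraries, a log2 fold change of -0.01 (SE 0.14). Cdkn1a, which encodes p21, had 92.9 ± 29.1 and 99.2 ± 39.1 CPM (SD, n = 5 each; log2 fold change 0.09, SE 0.25). Of 27 quiescence and growth arrest genes, 0 passed and the median was 0.05. At an unadjusted p under 0.05, 3 were higher and 1 lower, beside 3.37% and 3.31% of all genes tested. Klf9, a repressor linked to growth arrest, had the smallest p of that list, with 79.5, 42.9, 84.7, 86.3 and 62.9 CPM in Ki67-positive and 130, 174, 77.1, 95.1 and 147 CPM in Ki67-negative libraries (log2 fold change 0.81, SE 0.28, edgeR adjusted p = 0.59). Its groups overlapped through Ki67-negative replicate 3.

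No Hedgehog gene passed the test. Of 13 Hedgehog target genes measured, 0 passed (2 lower and 0 higher at an unadjusted p under 0.05), and the median was -0.06. Of 25 pathway components 0 passed (0 lower and 1 higher), with a median of 0.03. Over all genes tested, 3.31% were lower and 3.37% higher at that unadjusted p. Gli1, the transcription factor that the pathway induces, had 226, 540, 223, 324 and 385 CPM in Ki67-positive and 321, 356, 414, 249 and 585 CPM in Ki67-negative libraries. The groups overlapped over nearly their whole range, and the log2 fold change was 0.18 (SE 0.43, edgeR adjusted p = 0.964). Hhip, a decoy receptor under Gli control, averaged 621 ± 236 and 628 ± 132 CPM (SD, n = 5 each; log2 fold change 0.02, SE 0.39). Ptch1 averaged 2973 ± 581 and 3147 ± 682 CPM and Smo 67.7 ± 6.34 and 70.4 ± 14.5 CPM (SD, n = 5 each). Standard errors near 0.4 leave room for differences of that size in Gli1, Hhip and Ptch1.

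Sostdc1, an antagonist of BMP and Wnt signals that stands in the Hedgehog target list, was the gene of that list nearest to the threshold. It had 241, 211, 198, 238 and 297 CPM in Ki67-positive and 162, 171, 88, 98.1 and 101 CPM in Ki67-negative libraries, without overlap. Its log2 fold change was -0.93 (SE 0.19) with an edgeR adjusted p of 0.067. It passed with DESeq2, with no filter on low counts and when Ki67-negative replicate 1 or 2 was left out. In vismodegib nests Sostdc1 averaged 813 ± 149 CPM (SD, n = 5), above both untreated means. Gli1 averaged 75.6 ± 48.1 CPM there (SD, n = 5), below both untreated means. These vismodegib levels were not tested here. Of 16 Wnt target genes 0 passed (0 lower and 0 higher at an unadjusted p under 0.05; median 0.11). Lgr5, a Wnt-responsive receptor of hair follicle stem cells, had 492, 744, 682, 543 and 545 CPM in Ki67-positive and 839, 708, 888, 535 and 941 CPM in Ki67-negative libraries (log2 fold change 0.38, SE 0.22, edgeR adjusted p = 0.819). Ki67-negative replicates 2 and 4 lay within the Ki67-positive range and the other 3 above it.

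Keratinocyte identity genes overlapped between the groups. Krt14, the basal keratin, averaged 988 ± 259 CPM in Ki67-positive and 785 ± 214 CPM in Ki67-negative nests (SD, n = 5 each; log2 fold change -0.33, SE 0.19, edgeR adjusted p = 0.813). Of 17 basal and hemidesmosome genes 0 passed and the median was 0.15; of 32 epidermal differentiation genes 0 passed and the median was -0.16. Of 38 cytoplasmic ribosomal protein genes 0 passed, with a median of -0.06. Of 36 nuclear-encoded respiratory chain genes 0 passed and 1 was lower at an unadjusted p under 0.05, beside 3.31% of all genes tested. Yet 35 of 36 were below 0, beside 48.9% of all genes tested. The median was -0.23 and lay between -0.37 and -0.13 over the alternatives. The summed level of these 36 genes overlapped between the groups, at 1836 to 3086 CPM in the Ki67-positive group against 1617 to 2872 CPM in the Ki67-negative group.

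Several immune and stress lists had positive medians, and 3 of these depended on 1 library. The wound and stress keratinocyte list (14 measured, 0 passed, median 1.35) had a median of -0.65 without Ki67-negative replicate 4, whose summed level of 5345 CPM stood above the 924 to 1671 CPM of the other Ki67-negative libraries. The mast cell and neutrophil markers (10 measured, 0 passed, median 0.86) had a median of -0.24 without that library. They share S100a8 and S100a9 with the wound and stress list. The interferon response list (19 measured, 0 passed, median 0.58) had a median of 0.06 without Ki67-negative replicate 5. Macrophage and monocyte markers (14 measured, 0 passed) were above 0 in 13 of 14, with a median of 0.67 that lay between 0.47 and 0.94 over the alternatives. Their summed level was 61.2 to 254 CPM in the Ki67-positive group against 112 to 533 CPM in the Ki67-negative group, and the groups overlapped. Fibroblast markers (20 measured) had a median of 0.00 and summed to 2376 to 7853 CPM and 3684 to 6486 CPM; melanocyte markers (8 measured, 7 below 0) had a median of -0.44 and summed to 383 to 1647 CPM and 225 to 1295 CPM. None of the 8 B and plasma cell markers had enough counts to be tested, and 1 of 14 matched T and NK cell markers was at 0 in all untreated libraries. The part of these cells in the lower mitotic transcripts was not tested.

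No gene rose by edgeR. The 4 genes of smallest p above 0 at a moderate level (mean log2 CPM above 3) had log2 fold changes of 0.59 to 0.79. Sema6d, a membrane semaphorin, had 47, 38.1, 30.3, 36 and 35 CPM in Ki67-positive and 57.1, 61, 65.4, 42.3 and 72.1 CPM in Ki67-negative libraries (log2 fold change 0.68, SE 0.16, edgeR adjusted p = 0.144). Only Ki67-negative replicate 4 lay within the Ki67-positive range. Sik1, a salt-inducible kinase, averaged 62.6 ± 8.95 and 94.1 ± 13.4 CPM (SD, n = 5 each), and its log2 fold change was 0.59 (SE 0.14, edgeR adjusted p = 0.171). The deubiquitinase Otud1 had 12.7, 16.7, 19.2, 19.8 and 14.6 CPM against 20.2, 34.6, 28.7, 22.3 and 38.4 CPM, without overlap (log2 fold change 0.79, edgeR adjusted p = 0.2). Il1rl2, the receptor for interleukin-36, also showed no overlap, with 147 to 242 CPM in the Ki67-positive group against 248 to 347 CPM in the Ki67-negative group (log2 fold change 0.59, edgeR adjusted p = 0.277). DESeq2 called 5 genes higher: Sema6d, Sik1, Otud1, Pglyrp4 and Rgsl1. The last 2 had the larger differences. Rgsl1 had 6.14, 9.33, 5.23, 10.9 and 5.26 CPM in Ki67-positive and 13.7, 22.1, 22.2, 9.51 and 44.3 CPM in Ki67-negative libraries, a log2 fold change of 1.60 (SE 0.44, adjusted p = 0.325 by edgeR and 0.0494 by DESeq2). Its groups overlapped through Ki67-negative replicate 4. Pglyrp4, a peptidoglycan recognition protein gene, had 0.307, 0.161, 0.475, 0.343 and 0.202 CPM against 2.1, 2.27, 1.21, 5.59 and 0 CPM, a log2 fold change of 2.79 (SE 0.76, adjusted p = 0.305 by edgeR and 0.0187 by DESeq2). Ki67-negative replicate 5 was at 0 and the other 4 lay above the Ki67-positive range.

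In the vismodegib nests, the mean of each of the 30 genes lay above the Ki67-negative mean. For 28 of the 30 it lay between the means of the untreated groups. The 30 genes were picked in these data for low Ki67-negative and high Ki67-positive levels. That choice by itself favours such a position for any other group, and the share over all genes tested is not given. These counts therefore cannot place the vismodegib nests between the untreated groups in cycling. Mki67 averaged 683 ± 142 CPM in the vismodegib nests and Knl1 81.1 ± 11.2 CPM (SD, n = 5 each). These levels are given beside the comparison and were not tested here.

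Promoter letters, which the comparison did not use, were read for the called genes. Promoter windows of RefSeq on GRCm38.p6, 250 bases before to 50 after each transcription start, were found for 27025 genes, 12241 of the genes tested and 26 of the 30. They were searched on both strands for the CHR (TTTGAA or TTCGAA), the CCAAT box (CCAAT) and E2F elements (TTTCCCGC, TTTGGCGC or TTTCGCGC); no motif contains another. Within 50 bases of the start, a CHR stood in 17 of 26 called genes (65.4%) and in 32 of 51 mitosis genes (62.7%), beside 2 of 32 replication genes (6.25%), 4.55% of genes tested and 6.12% of all genes with a window. An E2F element stood there in 1 of 26 called genes (3.85%), 11 of 32 replication genes (34.4%) and 3 of 51 mitosis genes (5.88%), beside 1.27% of genes tested and 0.74% of all. A CCAAT box stood there in 8 of 26 called genes (30.8%), 28 of 51 mitosis genes (54.9%) and 11 of 32 replication genes (34.4%), beside 16.5% and 15.6%. The called genes were thus near the replication genes in CCAAT boxes, also in the whole 300 bases (57.7% and 59.4%, beside 41.9% of genes tested). In the whole 300 bases, 21 of 26 called genes held a CHR (80.8%), beside 7 of 32 replication genes (21.9%), 17% of genes tested and 21.7% of all genes with a window. A match describes letters and is not a bound site.

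**Figure D5:**
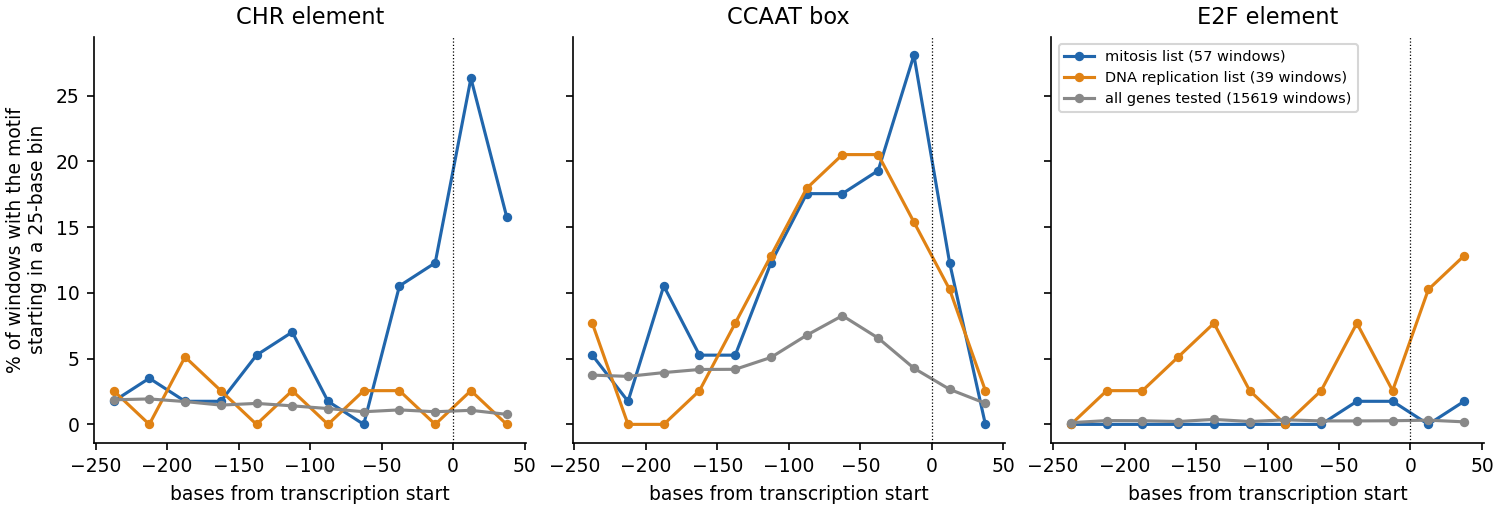
Share of promoter windows (y axis, %) in which a motif begins in each bin of 25 bases, by distance from the transcription start (x axis, bases), for mitosis genes (blue), replication genes (orange) and all genes tested (grey). The CHR of mitosis genes is most frequent in the 25 bases after the start (26.3% of windows), and E2F elements of replication genes in those just after it; the grey lines stay low for both motifs.

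The promoters below are those of called genes that held both a CHR and a CCAAT box from 120 bases before to 30 after the start; 9 genes did, and the 5 of smallest p are shown with Racgap1, the partner of Kif23. They are given 5′ to 3′ on the gene's strand, with the CHR and the CCAAT box in capitals, each as it reads on that strand (ATTGG is CCAAT reversed and complemented, and TTCAAA likewise TTTGAA). The windows are Gas2l3 at chr10:89443938-89444087 (minus strand), Kif11 at chr19:37376262-37376411 (plus), Kif23 at chr9:61946770-61946919 (minus), Hmmr at chr11:40733408-40733557 (minus), Aspm at chr1:139454653-139454802 (plus) and Racgap1 at chr15:99651627-99651776 (minus). Each covers upstream sequence and the first transcribed bases, and the Aspm start lies 585 bases inside the RefSeq gene model.
Gas2l3: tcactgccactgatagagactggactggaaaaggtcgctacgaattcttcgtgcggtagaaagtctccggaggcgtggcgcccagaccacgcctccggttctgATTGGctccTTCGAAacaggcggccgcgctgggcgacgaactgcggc
Kif11: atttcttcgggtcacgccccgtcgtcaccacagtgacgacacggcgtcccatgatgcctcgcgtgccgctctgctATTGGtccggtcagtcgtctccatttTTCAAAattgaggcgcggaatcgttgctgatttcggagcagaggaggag
Kif23: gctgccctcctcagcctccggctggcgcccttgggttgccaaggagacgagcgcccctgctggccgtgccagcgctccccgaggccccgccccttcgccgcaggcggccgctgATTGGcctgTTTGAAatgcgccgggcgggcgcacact
Hmmr: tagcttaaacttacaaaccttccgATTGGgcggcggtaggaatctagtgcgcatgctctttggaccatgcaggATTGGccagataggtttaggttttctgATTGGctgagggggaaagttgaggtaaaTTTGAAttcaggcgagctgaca
Aspm: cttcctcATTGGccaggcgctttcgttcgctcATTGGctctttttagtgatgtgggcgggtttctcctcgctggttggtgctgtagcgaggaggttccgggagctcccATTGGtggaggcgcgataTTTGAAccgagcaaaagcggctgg
Racgap1: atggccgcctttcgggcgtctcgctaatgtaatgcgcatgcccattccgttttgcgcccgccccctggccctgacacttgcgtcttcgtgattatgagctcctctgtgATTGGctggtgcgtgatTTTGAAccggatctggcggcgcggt

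In all 6 the last CCAAT box came before the CHR. From the first letter of that box to the first letter of the CHR were 9 bases in Gas2l3 and Kif23, 17 in Racgap1, 18 in Aspm, 26 in Kif11 and 28 in Hmmr. Hmmr and Aspm held 3 CCAAT boxes each.

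For contrast, 8 replication genes held an E2F element in the same window, and the 3 of smallest p are shown with that element (or its reverse complement) in capitals; none of these genes passed the test. They are Hells at chr19:38930870-38931019 (plus strand, with the start 728 bases inside the gene model), Rfc3 at chr5:151651179-151651328 (minus) and Mcm3 at chr1:20820283-20820432 (minus).
Hells: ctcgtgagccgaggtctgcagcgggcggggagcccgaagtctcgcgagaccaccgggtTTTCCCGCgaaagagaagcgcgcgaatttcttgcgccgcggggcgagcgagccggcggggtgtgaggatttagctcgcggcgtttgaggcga
Rfc3: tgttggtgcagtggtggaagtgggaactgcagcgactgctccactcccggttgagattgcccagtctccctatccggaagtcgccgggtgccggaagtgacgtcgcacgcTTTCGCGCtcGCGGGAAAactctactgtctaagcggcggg
Mcm3: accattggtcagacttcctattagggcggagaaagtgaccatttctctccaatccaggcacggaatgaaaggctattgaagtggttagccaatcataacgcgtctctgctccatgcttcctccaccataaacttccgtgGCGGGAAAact

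Hells, which remodels chromatin for DNA methylation, had a log2 fold change of -0.72 (edgeR adjusted p = 0.549), the clamp loader subunit Rfc3 -0.70 (edgeR adjusted p = 0.634) and the helicase subunit Mcm3 -0.72 (edgeR adjusted p = 0.718). Of these 3, Rfc3 alone had groups that did not overlap, at 13.5 to 19 CPM in the Ki67-positive group against 4.19 to 12.2 CPM in the Ki67-negative group. The 6 printed mitotic genes had log2 fold changes between -1.71 for Kif23 and -1.25 for Hmmr.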

How the data were processed

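Counts and normalised RPKM per NCBI gene identifier were deposited by the authors as 1 table per library, per the file headers. Reads were aligned with GSNAP to GRCm38, per the submitters' processing notes; the version is not given in the sources used here. The deposited RPKM values were the count times 1 constant per gene and 1 per library (largest relative deviation 7.1e-15 over 11301 genes) and served only to compare levels between genes. Symbols came from a gene table and matched 31049 of 36528 identifiers (85%).

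The counts were tested with edgeR 4.0.16 in R 4.3.3: genes kept by filterByExpr (minimum count 10, minimum total 15), TMM normalisation, and 1 robust quasi-likelihood fit of all 15 libraries in 3 groups (12 residual degrees of freedom), contrast Ki67-negative minus Ki67-positive. P-values were adjusted by Benjamini-Hochberg over 17282 genes and called under 0.05. CPM used TMM library sizes. Total counts and genes with a count were compared by exact permutation tests. DESeq2 1.42.0, limma 3.58.1, other normalisations, filters and sample sets and leaving out each library were tried as alternatives.

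Replicate numbers are names in record order and pair nothing. Members and gene lists were chosen with earlier results of these data known. Named genes were up to 12 called genes per direction with the largest change (all libraries of 1 group above the other), filled to 12 by smallest p, plus a list of key genes and up to 3 per gene list; members of the cell cycle roles and called genes outside this rule were named after their values were seen. No library was left out, and 1 called gene is not reported here.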

Additional observations from a re-analysis of the deposited data

Results flagged for a closer look

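Within each untreated group of 5, the values of reported genes and list sums were screened for a library at 1 end whose gap to its neighbour exceeded 0.71 of the group's range. Chance alone gives about 1 such flag in 20 groups; 234 groups were screened and 14 were flagged.

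Ki67-negative replicate 4 held 4 of the flags. It had 322.8 CPM of Il1b, the inflammatory cytokine, where the other 4 libraries had 0.71 to 12.1 CPM, and 161.6 CPM of the monocyte receptor Cd14, where the others had 0.968 to 8.89 CPM. Its wound and stress sum was 5345 CPM (924 to 1671 CPM in the others) and its mast cell and neutrophil sum 2983 CPM (179 to 727 CPM). Both lists hold S100a8 and S100a9, and the wound and stress list also holds Il1b, so these flags are not independent of each other.

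Ki67-negative replicate 5 had the fewest genes with a count, 19669 against 21842 to 22325. It also had 24.4 CPM of the interferon-induced Mx1, where the others had 0 to 1.56 CPM, and an interferon sum of 662 CPM (258 to 343 CPM in the others).

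Ki67-positive replicate 1 had a wound and stress sum of 2784 CPM (1566 to 1732 CPM in the others) and a mast cell and neutrophil sum of 1566 CPM (127 to 306 CPM). These sums likewise share S100a8 and S100a9. Ki67-positive replicate 5 was high in the cornified envelope gene Lor, at 3.03 CPM (0.713 to 0.965 CPM).

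Aspm was low in Ki67-negative replicate 3, at 33.5 CPM (54 to 60.5 CPM in the others), and Mcm2 in Ki67-positive replicate 2, at 16.4 CPM (33 to 38.4 CPM). Pole was high in Ki67-negative replicate 1, at 46.3 CPM (21.7 to 28.3 CPM), and the cyclin D partner Cdk6 in Ki67-positive replicate 3, at 494 CPM (354 to 390 CPM).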

How the results depend on the processing

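Of genes lower in Ki67-negative nests, 30 in the report, 0 were called with the untreated libraries alone (smallest adjusted p of the 30 genes 0.0736), 0 without the 2 untreated libraries in which Xist exceeded Ddx3y, 83 by DESeq2, 15 by limma with voom and 48 at an adjusted p under 0.1. Leaving out 1 library gave 0 to 43 lower calls: 0 without Ki67-positive replicate 4 or Ki67-negative replicates 3, 4 or 5, 2 without Ki67-positive replicate 5, 12 without Ki67-negative replicate 2, and 24 to 43 without the others. Of genes higher, 5 were called by DESeq2 and 0 to 1 when 1 library was left out (1 without Ki67-positive replicate 2). Other normalisations, filters, a term for Xist above Ddx3y and a fit without the robust option gave 28 to 38 lower and 0 higher calls; 27 of the 30 genes were called again with the Xist term. The intended stricter filter (CPM of at least 1 in at least 5 libraries) kept more genes, 18305, than the main one. No direction of a called gene reversed. The median log2 fold change of the 30 genes lay between -1.49 and -1.21 over the 20 alternatives, and that of all genes between -0.02 and 0.02. Of the mitosis list, 38 members were called by DESeq2, 8 by limma with voom and 0 with the untreated libraries alone.

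No paired analysis was possible because the labels give no replicate numbers and tie no library to an animal. Relative counting error is widest for transcripts with the fewest counts. Among the 30 called genes, Cep55 and Nuf2 had the lowest Ki67-negative means, 4.05 and 4.85 CPM. Some reported genes that were not called were lower still, such as Lor at 1.10 CPM in that group.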

Other observations

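Beside the cell cycle, the list of matrix enzymes and mesenchymal genes had 21 measured members, of which 0 passed, 16 were above 0 and the median log2 fold change was 0.32; it was 0.15 without Ki67-negative replicate 4 and 0.18 without Ki67-positive replicate 3. ERK feedback genes, which are induced by growth factor signalling and restrain it, had 10 of 13 above 0 with a median of 0.24 and 0 calls. Slc11a1, a metal transporter of phagocytes chosen after its values were seen, had 1.38, 0, 0.238, 1.03 and 0.405 CPM in Ki67-positive and 1.94, 2.97, 3.63, 7.55 and 6.58 CPM in Ki67-negative libraries, without overlap. Its log2 fold change was 2.84 (SE 0.66) and did not pass (edgeR adjusted p = 0.127). The macrophage gene Cd14 had a log2 fold change of 3.45, and 0.24 without Ki67-negative replicate 4.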
